A study of Mus musculus with 4 samples.

Results

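The genes described here are the airway mucins and the genes of mucus secretion in mouse nasal mucosa, which the sample titles call olfactory epithelium. They are the gel-forming mucins *Muc2*, *Muc5ac* and *Muc5b*, the transmembrane mucins *Muc1*, *Muc4*, *Muc16* and *Muc20*, and the secretory genes *Tff2*, *Agr2* and *Spdef*. Members were the non-control probes whose RefSeq accession maps to one of these 10 symbols. A probe was found for 9 of the 10 genes, 14 probes in all, among the 45604 genes tested on the array. No probe accession mapped to *Muc16*, so its level is not given.

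Mucus is a hydrated gel built from very large, heavily O-glycosylated proteins. MUC5AC, MUC5B and MUC2 are secreted from goblet cells and glands and link into polymers, whereas MUC1, MUC4, MUC16 and MUC20 are anchored in the apical membrane. AGR2 is an endoplasmic reticulum protein needed for mucin folding, TFF2 is a small trefoil peptide secreted together with mucins, and SPDEF is an ETS-family transcription factor that drives goblet cell differentiation. In the nose, mucus is made by goblet cells of the respiratory epithelium, by Bowman's glands under the olfactory epithelium and by submucosal glands.

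Untreated C57BL/6 mice of 2 ages were compared, young adult (8 weeks) and aged (16 months). The label and the study give their sex as male, but the *Xist* and Y chromosome signals given below go against it. Each age had 2 Cy3 one-color arrays, each hybridized with the RNA of a pool of 5 mice. The strain label is C57BL/6J. The sample labels also carry a description of silica aspiration in lung, which fits neither the titles nor the study and was not used. The study counts fewer mice per age for its gene analyses than separate pools would need, so the pools of an age may share mice and P-values measure only the spread between these arrays. A level below is a background-corrected, quantile-normalized intensity, and levels of different genes cannot be compared because probes differ in brightness. A difference is a log2 fold change of aged over young adult mice from limma, with its standard error (SE). A gene passed the criteria with P below 0.05 and an FDR (Benjamini-Hochberg, all genes) below 0.25. It was counted as a differentially expressed gene (DEG) when, in addition, its mean level reached 100 and its fold change 1.5, the limits given in the study's methods. With 2 arrays per age, an exact two-sided permutation test of 1 gene cannot give a P below 0.333.

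Between 63.1 and 76.8% of the non-control spots were well above background on each array, and no spot was saturated. Correlations across genes were 0.987 between arrays of one age and 0.982 to 0.989 between ages. By the slide barcode, 1 slide held the first array of both ages. Markers of the labelled tissue were high on all arrays, with *Omp* (olfactory marker protein) between 286061 and 332591 and *Cyp2g1* (a sustentacular cell enzyme) between 221117 and 252656. *Foxj1* (the regulator of motile ciliogenesis), taken here as a marker of respiratory ciliated cells, lay between 6276 and 7447. Its level alone does not show which cells it came from. Against the male label, *Xist* lay between 612 and 645 and above background on all 4 arrays. Of 11 probes for 8 Y chromosome genes, 1 was above background, on 1 array. The *Xist* signal was thus present at both ages, and what these signals have to do with the mucin results was not tested.

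In the aged mucosa *Muc5ac* fell and *Muc5b* rose, while *Muc2*, the third gel-forming mucin measured, did not pass the criteria. *Tff2* fell. *Agr2* and *Spdef* did not pass the criteria, nor did the transmembrane mucins *Muc1*, *Muc4* and *Muc20*. By limma, *Muc5b* (FDR = 0.245) and *Tff2* (FDR = 0.242) passed narrowly and *Agr2* (FDR = 0.290) missed narrowly. With the replicate number as a block in the limma fit, the calls of *Muc5ac*, *Muc5b* and *Tff2* were all lost (FDR = 0.433). Those of *Muc5b* and *Tff2* were also lost in further settings, given below. Of the 9 genes, 2 were lower and 1 higher by the P and FDR criteria, against 2.33% of all genes lower and 1.65% higher. Only *Muc5ac* was a DEG, in a background of 1.15% of all genes lower and 0.814% higher as DEGs. The arrays of the 2 ages did not overlap for any of the 9 genes, 5 higher and 4 lower in aged mice, a separation that 46% of all genes had (24.2% higher and 21.8% lower). The median log2 fold change of the 9 genes was 0.14, and that of all genes 0.01.

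**Figure D1:**
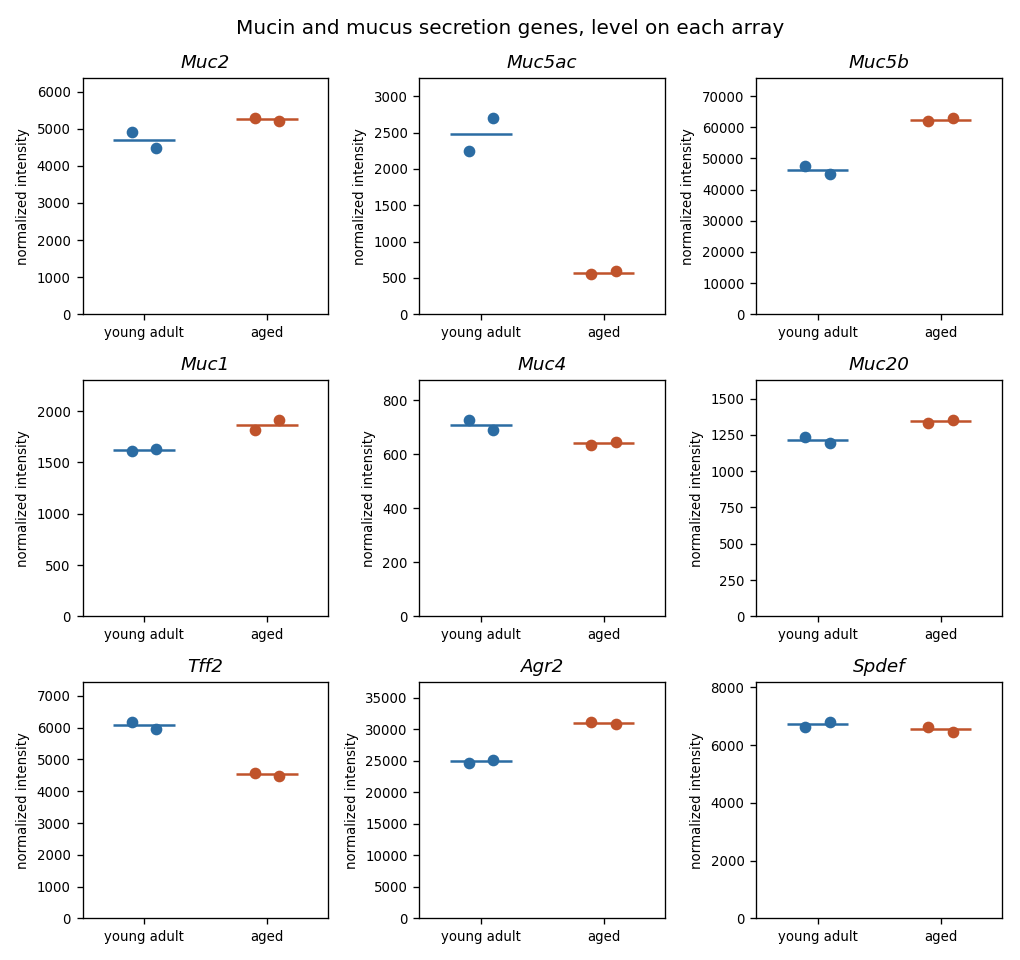
Normalized intensity (vertical axes, linear from 0, scaled for each gene) of the 9 genes with a probe on the 2 young adult and 2 aged arrays, with points for single arrays and lines for the mean of each age. *Muc5ac* lay at 553 and 597 in aged mice, far below both young adult arrays, whereas the means of *Spdef* differed by about as much as arrays of one age did.

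*Muc5ac* encodes the gel-forming mucin typical of goblet cells of the airway surface. Its level was 2245 and 2704 in the young adult pools, against 553 and 597 in the aged pools. Both aged arrays lay far below both young adult arrays, and the gap between ages was several times that between arrays of one age. The mean fell from 2475 ± 324 to 575 ± 31.1 (SD, n = 2 pools each), with a log2 fold change of -2.10 (SE 0.13, FDR = 0.178 by limma), or 4.29-fold lower in aged mice. The 95% confidence interval of the log2 fold change was -2.50 to -1.70. By the size of the fall, *Muc5ac* ranked 11 among the 524 DEGs lower in aged mice. Within the slide that held both ages the log2 difference was -2.02. With any 1 array left out the log2 fold change stayed between -2.24 and -1.96, but the FDR rose to between 0.408 and 0.677, and no gene of the array passed (3294 to 5291 genes had an unadjusted P below 0.05). Nasal mucosa is bulk tissue, in which fewer cells of a type and less RNA per cell cannot be told apart. The level rests on 1 probe, which was well above background on all 4 arrays.

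*Muc5b* encodes the gel-forming mucin that glands and surface secretory cells release for mucociliary clearance. Its level was 47479 and 44920.3 in the young adult pools, against 61911 and 63065 in the aged pools. Both aged arrays were higher, the opposite direction to *Muc5ac*. The mean rose from 46200 ± 1810 to 62488 ± 816 (SD, n = 2 pools each), with a log2 fold change of 0.44 (SE 0.08, FDR = 0.245 by limma), or 1.35-fold, below the fold-change limit for a DEG. Its probes rose by log2 differences of 0.54 and 0.33, and the brighter probe alone did not pass the FDR criterion (FDR = 0.288). Within the shared slide the log2 difference was 0.38. With any 1 array left out the log2 fold change was 0.39 to 0.48 and the FDR was above 0.25.

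*Muc2* encodes the main mucin of the intestine. Its level was 4909 and 4483 in the young adult pools, against 5295 and 5217 in the aged pools. Both aged arrays were slightly higher, but the log2 fold change of 0.16 (SE 0.09, 95% confidence interval -0.10 to 0.43) did not pass the criteria (FDR = 0.543 by limma) but did with an intensity trend (FDR = 0.192). Its 2 probes, which differ widely in brightness, gave log2 differences of 0.16 and 0.17.

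**Figure D2:**
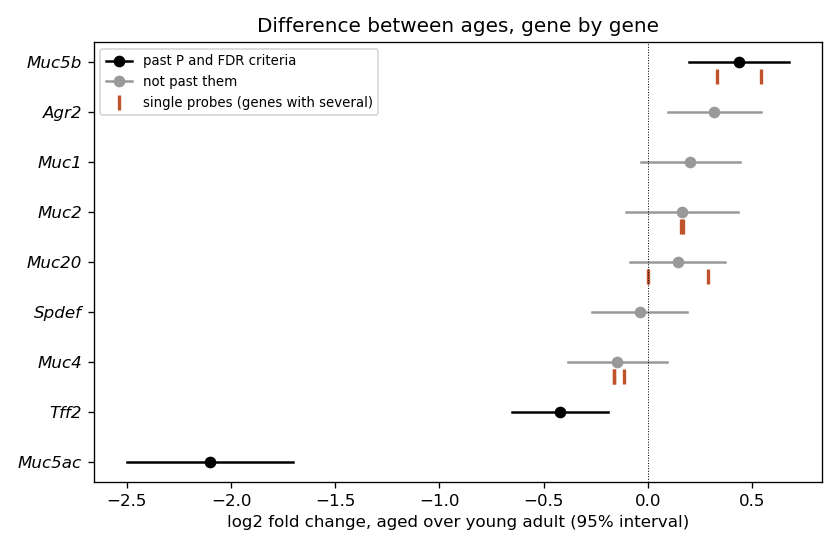
Log2 fold change of aged over young adult mice (horizontal axis) for each of the 9 genes, with the 95% confidence interval from limma as a line and the single probes of genes with several probes as ticks. Black marks the 3 genes past the P and FDR criteria: *Muc5ac* at -2.10, *Tff2* at -0.42 and *Muc5b* at 0.44.

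The divergence of the main airway gel-forming mucins was also taken within each array, where scaling of the whole array cancels. The log2 level of *Muc5ac* minus that of *Muc5b* was -4.40 and -4.05 in the young adult pools, against -6.81 and -6.72 in the aged pools. The value itself depends on the brightness of the probes, and only its change can be read. It changed by -2.54 between the mean of the young adult (-4.23 ± 0.25, SD, n = 2) and the aged arrays (-6.77 ± 0.06). The ages did not overlap (exact two-sided permutation test, P = 0.333, the smallest this design allows). That outcome was fixed once the 2 genes separated the ages in opposite directions, so it adds no evidence to theirs.

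In the gene table for the GRCm38.p6 assembly, *Muc6*, *Muc2*, *Muc5ac* and *Muc5b* follow one another on chromosome 7, and the values of neighbouring genes were read after those of the mucins had been seen. *Muc5ac* and *Muc5b* were the only genes past the criteria among the measured genes of this stretch, which were *Chid1*, *Ap2a2*, *Muc2*, *Muc5ac*, *Muc5b*, *Tollip*, *Brsk2* and *Mob2*. *Ap2a2* (log2 fold change 0.11, FDR = 0.622) and *Tollip* (0.19, FDR = 0.455), on either side of the mucins, did not pass the criteria in limma. *Muc6* had no matching probe.

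The trefoil peptide genes *Tff3*, *Tff2* and *Tff1* are neighbours on chromosome 17. *Tff2* was at 6188 and 5970.1 in the young adult pools, against 4573 and 4494 in the aged pools. Both aged arrays were lower, with close values within each age. The mean fell from 6079 ± 154 to 4534 ± 56.2 (SD, n = 2 pools each), with a log2 fold change of -0.42 (SE 0.08, FDR = 0.242 by limma), or 1.34-fold lower, and short of the DEG limit. Scaling the arrays to the 75th percentile gave -0.40 with an FDR of 0.272, and the same scaling of the processed intensity of the scanner software -0.36 with an FDR of 0.289, so the call depends on the scaling. Within the shared slide the log2 difference was -0.44.

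*Tff1*, which encodes another trefoil peptide co-secreted with mucins, was at 242 and 320 in the young adult pools, against 99.2 and 134 in the aged pools. Both aged pools were lower, although arrays of one age differed more than for *Tff2*. The log2 fold change was -1.27 (SE 0.24, FDR = 0.248 by limma), and *Tff1* was a DEG. With processed intensities at 75th percentile scaling it did not pass the FDR criterion (FDR = 0.260). *Tff3*, the trefoil peptide of intestinal goblet cells, was nowhere well above background.

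**Figure D3:**
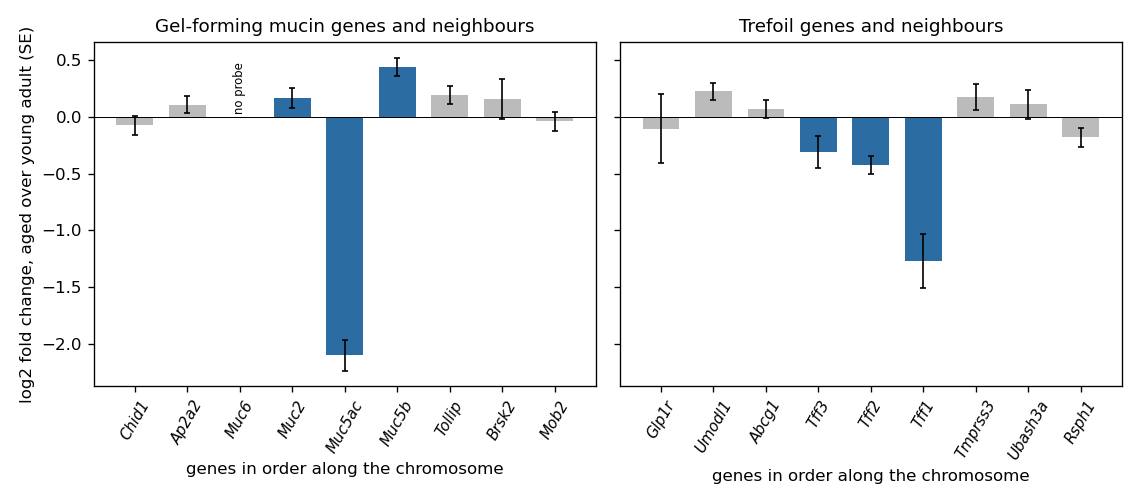
Log2 fold change of aged over young adult mice (vertical axis, bars with SE from limma) for the gel-forming mucin genes (left) and the trefoil genes (right) in blue and the genes beside them in grey, in order along the chromosome. *Muc5ac* falls between *Muc2* and *Muc5b*, which do not fall, and *Tff1* and *Tff2* are both lower, while *Tff3*, *Glp1r* and *Muc6* have no firm level or no probe.

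The transmembrane mucins form part of the glycocalyx of epithelial cells. *Muc1* was at 1608 and 1633 in the young adult pools, against 1816 and 1915 in the aged pools. Both aged arrays were higher, with a log2 fold change of 0.20 (SE 0.08, 95% confidence interval -0.04 to 0.44) that did not pass the criteria (FDR = 0.429 by limma) but did in 2 of the other settings. *Muc4*, a ligand of the receptor ERBB2, was at 727 and 689 in the young adult pools, against 634 and 645 in the aged pools. Both aged arrays were lower, with a log2 fold change of -0.15 (SE 0.08, 95% confidence interval -0.39 to 0.09, FDR = 0.544), and the 3 probes had log2 differences between -0.16 and -0.12.

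*Muc20*, the neighbour of *Muc4* on chromosome 16, was at 1237 and 1197 in the young adult pools, against 1334 and 1354 in the aged pools. Its log2 fold change of 0.14 (SE 0.08, FDR = 0.534 by limma) came from 1 of its 2 probes. The dimmer probe had a log2 difference of 0.29, and the brighter one of -0.0020 with overlapping arrays. Over the 3 transmembrane mucins measured, the 95% confidence intervals ran from -0.39 to 0.44, short of the fall of *Muc5ac*.

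*Agr2* was at 24650.5 and 25097 in the young adult pools, against 31180.1 and 30809.6 in the aged pools. Both aged arrays were higher, by more than the gap between arrays of one age. The log2 fold change of 0.32 (SE 0.07) missed the FDR criterion (FDR = 0.290 by limma). It passed with 4 other settings, among them a normexp offset of 50 (FDR = 0.138) and no background correction (FDR = 0.182).

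*Spdef* was at 6627 and 6807 in the young adult pools, against 6624 and 6456 in the aged pools. The lower young adult array and the higher aged array were almost equal. The log2 fold change was -0.04 (SE 0.08, 95% confidence interval -0.27 to 0.19, FDR = 0.858 by limma), and it was 0.015 with processed intensities at 75th percentile scaling.

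Other genes of mucus production were followed in 6 lists. Of the 150 genes measured in them, 4 were higher and 6 lower by the P and FDR criteria, against 3.98% of all genes in either direction, and the median log2 fold change was -0.06. The arrays of the 2 ages did not overlap for 98 of the 150 genes, 40 higher and 58 lower in aged mice, against the 46% of all genes given above. The 4 lists that held called genes each held them in both directions. In limma, 38 of the 150 genes had an unadjusted P below 0.05, beside 13.1% of all genes. By list these were 7 of 24 genes of mucin folding, packaging and granule content and 11 of 40 of O-glycosylation. They were also 7 of 40 measured regulators and 7 of 16 genes of salt and water transport, with the other 2 lists given below.

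Among 24 genes of mucin folding, packaging and granule content, 1 was higher and 2 were lower, with a median of -0.14. *Fcgbp*, which encodes a mucus protein that binds the Fc part of IgG and is built of von Willebrand domains like the gel-forming mucins, was at 2212 and 2245 in the young adult pools, against 4216 and 4284 in the aged pools. Its log2 fold change was 0.93 (SE 0.07, FDR = 0.178 by limma), with a gap between ages far larger than within them. *Itln1*, which encodes the goblet and Paneth cell lectin intelectin 1, was at 1153 and 1211 in the young adult pools, against 515 and 493 in the aged pools. It fell by 1.23 on the log2 scale (SE 0.08, FDR = 0.178). The other lower gene was *Tff1*, given above. *Xbp1*, a regulator of the unfolded protein response (log2 fold change 0.02), and *Hspa5*, the main chaperone of the endoplasmic reticulum (-0.17), did not pass. On no array were *Tff3*, *Clca1*, *Clca2* and *Zg16* well above background.

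Of 40 enzymes of mucin-type O-glycosylation, 1 was higher and 2 were lower, with a median log2 fold change of 0.00. *B3galt5*, a beta-1,3-galactosyltransferase of type 1 glycan chains, was at 836 and 855 in the young adult pools, against 455 and 449.8 in the aged pools. Its log2 fold change was -0.90 (SE 0.07, FDR = 0.178 by limma), and the ages were well apart. *Galnt18*, of the family that starts O-glycans, fell by 0.50 (FDR = 0.226), with levels of 1162 and 1089.99 against 799 and 791. The call of *Galnt18* was lost with processed intensities at 75th percentile scaling (FDR = 0.257). *Chst5*, a sulfotransferase that acts on N-acetylglucosamine, rose from 417 and 461 to 668 and 663, a log2 fold change of 0.60 (SE 0.09, FDR = 0.216). *C1galt1*, which makes the core 1 structure, had a log2 fold change of -0.31 (FDR = 0.417), and *Gcnt3*, which makes the branched core 2 structure of mucins, one of 0.38 (FDR = 0.278).

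Among 40 measured regulators of goblet and secretory cells, 1 was higher and 1 was lower, with a median of -0.10. *Hbegf*, a ligand of the EGF receptor, was at 741 and 688 in the young adult pools, against 498 and 525 in the aged pools (log2 fold change -0.48, FDR = 0.245 by limma), and its call was lost at 75th percentile scaling (FDR = 0.262). *Ereg*, another ligand of that receptor, was at 39.0 and 42.7 against 63.5 and 63.5 (0.64, FDR = 0.208), and it was well above background on only 1 array of each age. For *Ereg* a normexp offset of 50 gave a log2 fold change of 0.32 and the processed intensities one of 1.07, and its call was lost at 75th percentile scaling (FDR = 0.278). *Foxa2*, which restrains mucus production in the airway, was at 103 and 115 in the young adult pools, against 54.2 and 71.4 in the aged pools. Its log2 fold change of -0.81 (SE 0.18) missed the FDR criterion (FDR = 0.277). *Foxa2* and, in the other lists, *Xbp1*, *Hspa5*, *C1galt1*, *Gcnt3* and *Cftr* were named with their values already seen. The type 2 cytokine genes *Il13* and *Il4* had log2 fold changes of -0.24 (FDR = 0.721) and -0.28 (FDR = 0.363), with *Il4* well above background on no array and *Il13* on 1 young adult array alone.

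Salt and water transport sets how hydrated mucus is. Of its 16 genes, 1 was higher and 1 was lower, with a median log2 fold change of -0.08. *Kcnn4*, a calcium-activated potassium channel, fell from 2572 and 2635 in the young adult pools to 1295 and 1385 in the aged pools, by 0.96 on the log2 scale (SE 0.08, FDR = 0.178 by limma). *Slc26a9*, an epithelial chloride transporter, rose from 306 and 286 to 413 and 435, a log2 fold change of 0.52 (SE 0.09, FDR = 0.232), a call lost with processed intensities at 75th percentile scaling (FDR = 0.264). *Cftr*, the chloride channel altered in cystic fibrosis, had a log2 fold change of 0.27 (FDR = 0.486).

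None of the 23 genes of granule exocytosis passed the criteria in limma, and the median was 0.03. An unadjusted P below 0.05 was found for 4 of them, beside 13.1% of all genes. The smallest P were those of *P2ry2*, a receptor for extracellular ATP (log2 fold change 0.40, FDR = 0.252), and *Marcks*, a protein that ties mucin granules to the cytoskeleton (-0.39, FDR = 0.263). *P2ry2* passed in 7 of the other settings and *Marcks* in 6. None of 7 other mucin genes measured passed either, with 2 at an unadjusted P below 0.05. These were *Ovgp1*, known from the oviduct (log2 fold change 0.26, FDR = 0.340), and *Gm9573*, listed in the gene table as *Muc21* (-0.72, FDR = 0.287), which was well above background on 1 young adult array alone. The log2 fold change of *Gm9573* ran from -1.61 to -0.32 over the other settings, and it passed in 2 of the other settings, *Ovgp1* in 4. *Muc3*, *Muc3a*, *Muc6*, *Muc12*, *Muc17* and *Mucl1* had no matching probe.

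**Figure D4:**
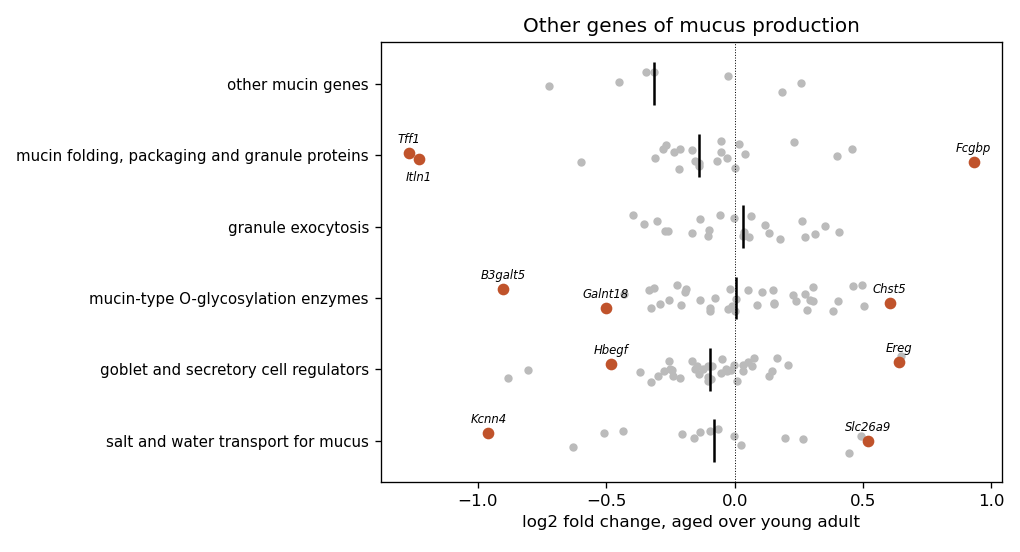
Log2 fold change of aged over young adult mice (horizontal axis) for the measured genes of 6 lists of mucus production, 1 point per gene, spread vertically at random within a list. Vertical bars are medians, and the 10 genes past the P and FDR criteria are named and coloured, with *Fcgbp* highest at 0.93 and *Tff1* lowest at -1.27.

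Markers of several cell types also differed between the ages, in both directions. Each marker list is given by its calls, its median log2 fold change and its summed level, and a summed level mostly follows the brightest probes of the list. Over all genes, 1.65% were higher and 2.33% lower by the P and FDR criteria, and 13.1% had an unadjusted P below 0.05. Of 6 markers of gland acinar cells, *Bhlha15*, a regulator of secretory cell architecture, fell from 9565 and 9115 to 4461 and 4357 (log2 fold change -1.08, FDR = 0.178 by limma). The other 5 did not pass, with *Prol1* not well above background, and the median was -0.21. The summed level was 299806 and 295500 in the young adult pools, against 224770 and 234519 in the aged pools. Most of that sum was *Dmbt1*, which did not pass (270153 and 265966 against 201839 and 211283, FDR = 0.264). Of 7 markers of airway secretory cells, *Ltf* (lactoferrin) fell by 0.67 on the log2 scale and *Scgb3a1*, a secretoglobin, rose by 1.02, with a median of 0.07. Their summed level was 988766 and 978513 against 925974 and 938160.4, with the club cell gene *Scgb1a1* above background on only 1 array of each age. Of 4 basal cell keratin and regulator genes, *Krt5* and *Krt15* fell by 0.49 and 0.82, the median was -0.40 and the summed level went from 37928 and 38355 to 28457 and 27896.

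None of 8 markers of ciliated cells passed, beside 3.98% of all genes, and 1 had an unadjusted P below 0.05, beside 13.1%. Their median was -0.08 and their summed level 41246 and 40264 against 38137 and 38026. None of 5 squamous markers passed, 3 having an unadjusted P below 0.05. Their median was -0.38 and their summed level 2019 and 2035 against 1579 and 1534, with *Dsg3* not well above background. Of 5 Bowman's gland markers, *Ascl3* rose by 0.59, the median was 0.02 and the summed level was 363369 and 375096 against 355828 and 375102. Of 4 markers of tuft-like cells, *Trpm5* rose by 0.67 (median 0.15, summed level 1021 and 995 against 1169 and 1170.2). All 4 bone and osteoclast markers fell (median -1.23, summed level 56101 and 55399 against 19968 and 19720.3). Among 4 fibroblast markers *Col1a1* (log2 fold change -1.98) and *Col3a1* (-1.97) fell, whereas *Dcn* (log2 fold change -0.19) and *Pdgfra* (-0.29) did not pass. The median of the fibroblast markers was -1.13, and their summed level was 134734 and 119036 against 81390.01 and 75795. Among 4 pituitary markers, *Prl* and *Gh* rose (median 2.41, summed level 703 and 619.5 against 8972 and 8796). Of 5 mast cell markers, *Kit* fell by 0.60 (median 0.0038, summed level 1932 and 2105 against 1663 and 1626). The other 4 did not pass, and the log2 fold change was positive for 3 of the 5. None of 5 markers of eosinophils and type 2 lymphoid cells passed, with 2 at an unadjusted P below 0.05 (median -0.39, summed level 666 and 589 against 427 and 521), and *Epx* was not well above background. None of 6 markers of mature olfactory receptor neurons passed, 1 having an unadjusted P below 0.05 (median 0.15, summed level 427045 and 417083 against 458605 and 468188), and of 4 sustentacular markers *Cyp1a2* rose by 0.54 (median 0.15, summed level 339226 and 327151 against 358682 and 362960.4). What these shifts have to do with the mucin genes was not tested.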

How the data were processed

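RNA of nasal mucosa was labelled, hybridized and scanned by the authors, who extracted spot values with Agilent Feature Extraction 11.0.1.1. The deposited files hold, for 62976 spots per array, a median intensity, the local background, a processed intensity and quality flags, all before any scaling across arrays. The deposited series table equalled the processed intensity for all spots and was not a separate source.

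Background correction used normexp with an offset of 0, since the methods name neither, and all fits were made in limma 3.58.1 (R 4.3.3). Control spots and outlier flags were left out, spots of a probe averaged, arrays quantile normalized, and probes of a gene averaged on the log2 scale. Accessions without versions matched 32994 of 56605 probes to RefSeq genes of GRCm38.p6, and 12 genes without an unflagged spot on some array were dropped. All 14 member probes were well above background on every array, without flagged or saturated spots. The number of arrays limits the precision.

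Ages were compared with lmFit and eBayes on all 4 arrays without covariates, over 45604 genes. The fit was also run on simulated data, whose outcome is not given and on which no result above rests. Members, lists and tests were chosen with earlier results of these data known. The genes named are all members and, from each list of other mucus genes, up to 4 per direction past the criteria with ages apart, or else the 2 with the smallest P. Alternatives covered the background, the normalization, dim and multiple probes, the moderation, the replicate and slide block, and each array left out. The histology and qRT-PCR were not analysed here.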

Additional observations from a re-analysis of the deposited data

How the results depend on the processing

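The fall of *Muc5ac*, the rise of *Muc5b* and the fall of *Tff2* kept their direction under every alternative run. With the replicate number as a replicate block, all 3 had an FDR of 0.433 with log2 fold changes of -2.10, 0.44 and -0.42, and 0 genes of the array passed the P and FDR criteria in limma, higher or lower (member genes lower: 0), with 5197 at an unadjusted P below 0.05 (4 members). Same-numbered arrays did not deviate together after normalization (r = -0.08 across genes), and the main fit did not take the numbers as pairs. The first arrays of both ages shared a slide, however. Their median local background was 67 (young adult) and 63 (aged), against 32 and 39 on the second arrays. With any 1 array left out, 0 genes passed in either direction (members: 0 higher, 0 lower), with 3294 to 5291 at an unadjusted P below 0.05 (1 to 3 members), and the log2 fold changes ran from -2.24 to -1.96 for *Muc5ac*, from 0.39 to 0.48 for *Muc5b* and from -0.45 to -0.40 for *Tff2*. *Tff2* missed the FDR criterion at 75th percentile scaling of the normexp values (-0.40) or of the processed intensities (-0.36), and *Muc5b* with its brighter probe alone (0.33), while its log2 difference within the shared slide was 0.38. The within-array difference of *Muc5ac* and *Muc5b* was -2.72 on those processed intensities, and -2.71 to -2.36 with an array left out. The number of genes past the P and FDR criteria moved from 1817 to 4582 with a normexp offset of 50, to 4027 without background correction, to 7151 of 29495 with dim probes left out and to 7130 with an intensity trend, and *Agr2* passed in these 4. It was 1410 at 75th percentile scaling, 1506 on the processed intensities scaled so, 2332 with cyclic loess and 2415 with the brightest probe per gene. By the P and FDR criteria alone, 754 genes were higher (1 member) and 1063 lower (2 members), against 371 and 524 as DEGs (0 members and 1). Small differences turned for *Spdef*, to 0.015 on the processed intensities, and for *Muc20*, to -0.0020 with its brighter probe alone. The median log2 shift of all genes was between 0.01 and 0.07 in every scaling. The cause of these changes was not tested.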
